A study of Drosophila melanogaster with 4 samples.

Results

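The genes described here were 50 accessory gland and seminal fluid genes of Drosophila melanogaster, followed in poly(A) RNA from testes in which the early germ cells overproliferate. They were chosen by name from the 17559 gene IDs counted. A gene was a member if its FlyBase symbol was Sfp (seminal fluid protein) followed by a digit, Acp (accessory gland protein) followed by 2 digits and a capital letter other than Acp65Aa, or began with Mst57D, and SP and Spn28F were added. The rule itself used symbols and no measured value. Testes from Caf40 knockdown males, of genotype Caf40RNAi(BL67987)/nosGAL4, gave 2 libraries, and testes from bam mutant males, of genotype bam1/bam86, gave the other 2. 150 pairs of testes went into each library, and according to the methods the seminal vesicle was dissected along with the testis.

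Caf40 belongs to CCR4-NOT, the complex that shortens poly(A) tails, and Bam is the factor with which spermatogonia leave proliferation for differentiation. According to the methods, the nosGAL4 driver was used for germline stem cells and early spermatogonia, and the driver stock also carried UAS-Dicer2. Activity of the driver in somatic cells of the reproductive tract was not measured here. Knockdown males developed at 25 °C for the first 3 days and at 29 °C from then on. The bam mutant males, which carried the CyO balancer, were reared first at 22 °C and second at 25 °C. They received 30 min at 37 °C as pupae without any heat shock construct, and were dissected 48 h after that heat shock. The methods give an age of 0 to 2 days for the dissected males, but the sample labels give it for the knockdown only. No library of either genotype was raised in the other way. Genotype, rearing temperature, heat shock, stock and any difference in age therefore cannot be told apart in any difference below. The study's supplement names accessory gland genes as contamination in a microarray sample of bam mutant testes. Gland tissue carried over at dissection was not measured for these libraries and cannot be told apart from those sources either.

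The accessory glands are a pair of secretory organs that join the male tract next to the seminal vesicles and the ejaculatory duct. Their main cells and secondary cells make most of the proteins that are transferred with sperm at mating. In the female these proteins raise egg laying, lower receptivity to further males, help sperm to be stored and take part in proteolysis and its control. They are textbook products of the gland and not of germ cells.

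The knockdown libraries held 30411385 and 26984758 gene counts, and the bam mutant libraries 118209171 and 95125694. Levels are given in CPM, the usual scaling of counts to the size of a library, after TMM normalisation, which corrects for differences in RNA composition. A count of 0 allows up to 3 counts, which corresponded to 0.0997 and 0.103 CPM in the knockdown libraries and to 0.0265 and 0.0322 CPM in the bam mutant libraries. These limits and all count intervals below cover counting error only. The targeted gene, listed in the annotation as Rcd-1, measured 13.5 and 16.2 CPM in the knockdown and 204 and 207 CPM in the bam mutant (edgeR quasi-likelihood test, log2 fold change -3.80, p adjusted over all genes tested by Benjamini-Hochberg 2.09e-05). Germ cell genes such as aub and zpg were abundant in every library, as described with the tissue markers further on.

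Seminal fluid genes were mostly higher in the Caf40 knockdown. Of the 50 members, 47 and 45 had at least 1 count in the knockdown libraries, against 40 and 41 in the far deeper bam mutant libraries. In 39 members both knockdown libraries lay above both bam mutant libraries, in 2 they lay below, and in 9 the groups overlapped. Among all 15146 genes with at least 1 count, 34.3% had the knockdown above and 35.4% had it below without overlap. The defining gland genes SP, Acp26Aa and Acp36DE were detected in all 4 libraries, so gland transcripts were present in both genotypes. In bulk tissue, more or fewer cells of a type and more or less RNA per cell cannot be told apart.

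The count filter kept 32 members for the test, of which 30 were called higher in the knockdown, 2 were called lower, and 0 were left uncalled at an adjusted p under 0.05. Among all 10854 genes tested, 30.7% were called higher and 33.0% lower. The filter asked for about 0.159 CPM in at least 2 libraries, and each of the 32 members reached it in both knockdown libraries, so a member that passed only through the knockdown was bound to differ. The 11 members that reached this level in both bam mutant libraries as well would have been kept in any case, and 9 of them were called higher and 2 lower. With no filter beyond a single count, 36 of 49 members were called higher and 2 lower by edgeR, against 17.2% and 27.8% of the 15146 genes then tested.

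The median log2 fold change over the 32 tested members was 5.05, against 0.03 over all genes tested. With Sfp84E and Sfp96F, which were at 0 in both bam mutant libraries, set to their lower bounds, it was 4.84. The 30 members called higher had log2 fold changes between 3.14 and 8.95, with standard errors between 0.97 and 1.74 and edgeR adjusted p-values between 0.00528 and 0.0408. Most of these calls were lost when a bam mutant library was left out. Without bam mutant replicate 1, 4 of 42 tested members were called higher (Acp26Ab, Acp29AB, Acp76A and Spn28F; 19 members at an unadjusted p under 0.05), against 18.6% of all genes then tested. Without bam mutant replicate 2, only Acp32CD was called higher of 42 tested (9 unadjusted), against 17.4% of all genes. The median log2 fold changes of the members were then 5.50 and 4.65. Without knockdown replicate 1, 23 of 27 members were called higher, against 34.0% of all genes, and their median was 2.76. Without knockdown replicate 2, 39 of 41 were called higher, against 32.7% of all genes, with a median of 5.67. The labels do not say whether libraries of a genotype came from separate crosses, so p-values measure the spread between these libraries, which may be technical.

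**Figure D1:**
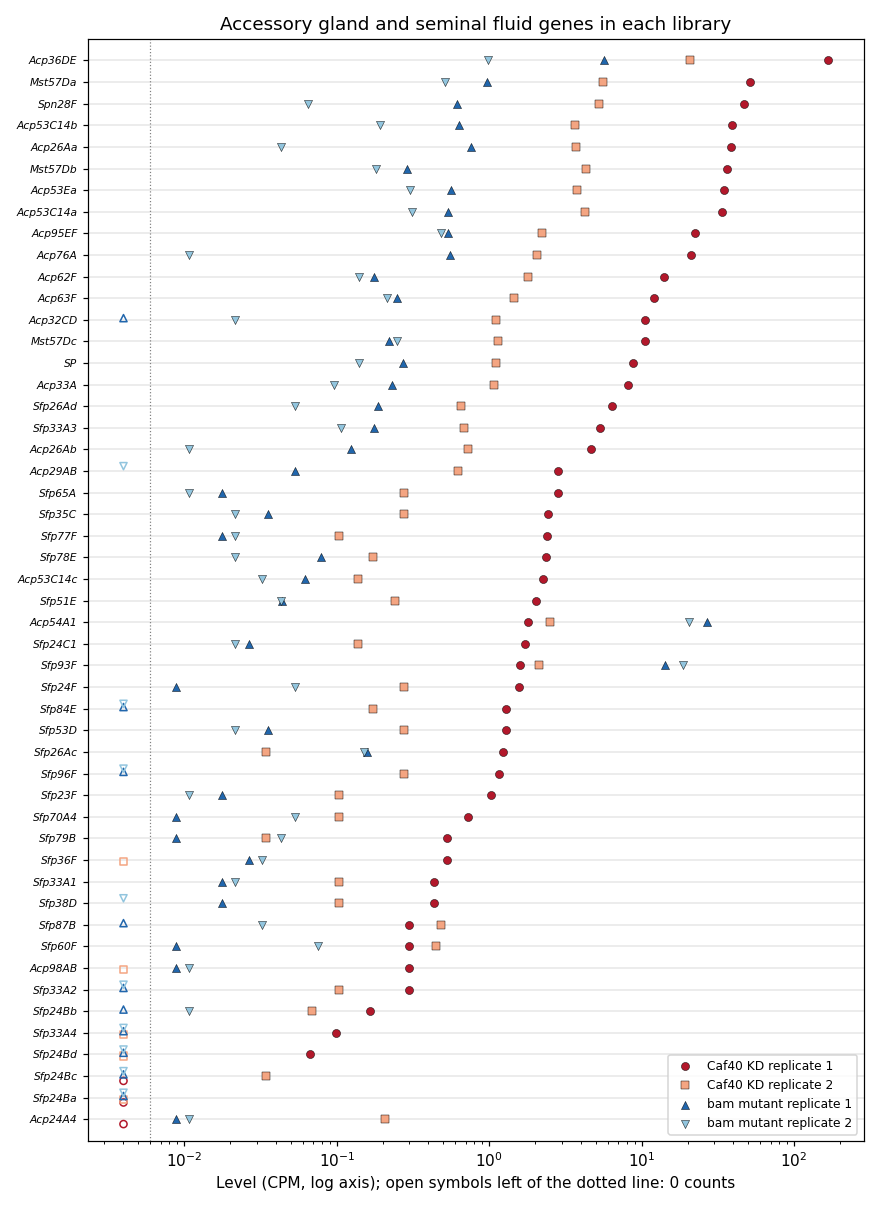
Level of each of the 50 members in each library, in CPM on a log axis and ordered by the level in Caf40 knockdown replicate 1. Open symbols left of the dotted line mark 0 counts. Acp36DE reached 167 CPM in knockdown replicate 1, and Acp54A1 and Sfp93F are the members whose bam mutant libraries lie to the right of the knockdown.

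SP encodes the sex peptide, the seminal peptide that induces egg laying and lowers receptivity in mated females. It measured 8.84 and 1.10 CPM in the knockdown libraries and 0.274 and 0.140 CPM in the bam mutant libraries. Both knockdown libraries were above the bam mutant, the second by 4.03 times the higher bam mutant value, and the log2 fold change was 4.57 ± 1.07 (SE, edgeR adjusted p 0.0139), or 2.34 without knockdown replicate 1. Acp26Aa encodes ovulin, a prohormone-like protein that raises ovulation. It was at 38.4 and 3.69 CPM in the knockdown and at 0.759 and 0.0429 CPM in the bam mutant, where the second value came from 4 counts. The genotypes did not overlap, although the bam mutant libraries differed from each other more widely than the knockdown libraries did. Its log2 fold change was 5.67 ± 1.53 (SE, edgeR adjusted p 0.0224). The neighbouring gene Acp26Ab, which encodes a small secreted peptide, had 139 and 21 counts in the knockdown and 14 and 1 in the bam mutant.

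Acp36DE encodes a large glycoprotein that is needed for sperm to be stored in the female. It took more counts than any other member in both knockdown libraries, at 167 and 20.9 CPM, against 5.65 and 0.977 CPM in the bam mutant. The knockdown lay above the bam mutant in every pairing of libraries, and the second knockdown library exceeded the higher bam mutant library by 3.70 times (log2 fold change 4.79 ± 1.21, SE, edgeR adjusted p 0.0179). Acp29AB, a C-type lectin with a role in keeping sperm stored, was a lower transcript, at 3.68 CPM per kb in knockdown replicate 1, where Acp36DE had 57.3 CPM per kb. It measured 2.83 and 0.620 CPM in the knockdown. In the bam mutant it had 6 counts in replicate 1, which is 0.0530 CPM, and 0 in replicate 2. Its log2 fold change was 5.86 ± 1.37 (SE, edgeR adjusted p 0.0137).

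Several members encode inhibitors of proteases, which act on the proteolytic processing of seminal proteins. Spn28F, a serpin, measured 46.8 and 5.24 CPM in the knockdown and 0.618 and 0.0644 CPM in the bam mutant. Acp76A, another serpin, measured 21.2 and 2.07 CPM in the knockdown and 0.556 and 0.0107 CPM in the bam mutant, the last value being 1 count. Acp62F, a trypsin inhibitor, measured 13.9 and 1.79 CPM in the knockdown and 0.177 and 0.140 CPM in the bam mutant. In all 3 inhibitors the lower knockdown library stood above the higher bam mutant library, by 8.48, 3.72 and 10.1 times in the order named. Their log2 fold changes were 6.19 ± 1.38, 5.32 ± 1.67 and 5.62 ± 1.07 (SE, edgeR adjusted p 0.0116, 0.0370 and 0.00642). In the bam mutant the counts of replicates 1 and 2 were 70 and 6 for Spn28F, 63 and 1 for Acp76A, and 20 and 13 for Acp62F.

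The Mst57D genes are small male-specific transcripts that encode short secreted peptides and lie side by side on chromosome 3R with Sfp96F. Mst57Da measured 51.1 and 5.58 CPM in the knockdown and 0.962 and 0.515 CPM in the bam mutant. Mst57Db measured 36.2 and 4.31 CPM in the knockdown and 0.291 and 0.182 CPM in the bam mutant. Mst57Dc measured 10.5 and 1.14 CPM in the knockdown and 0.221 and 0.247 CPM in the bam mutant. None of the 3 overlapped between genotypes. In the bam mutant, replicate 1 was 1.87 times replicate 2 for Mst57Da (95% exact interval 1.32 to 2.68), 1.60 times for Mst57Db (0.864 to 3.06) and 0.894 times for Mst57Dc (0.487 to 1.65). The log2 fold changes were 5.25 ± 1.12 for Mst57Da, 6.39 ± 1.15 for Mst57Db and 4.62 ± 1.08 for Mst57Dc (SE, edgeR adjusted p 0.0101, 0.00528 and 0.0136). Per kilobase of exon, which allows genes to be compared, Mst57Db and Mst57Da had the highest levels of all members in knockdown replicate 1, 186 and 157 CPM per kb, above the longer and more often counted Acp36DE.

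A group of Acp53 paralogs on chromosome 2R also belonged to the most abundant members. Acp53C14b measured 39.0 and 3.65 CPM in the knockdown and 0.636 and 0.193 CPM in the bam mutant. Acp53C14a measured 33.5 and 4.27 CPM in the knockdown and 0.538 and 0.311 CPM in the bam mutant. Acp53Ea measured 34.5 and 3.79 CPM in the knockdown and 0.565 and 0.301 CPM in the bam mutant. The 3 genes were thus close to each other in all 4 libraries, did not overlap between genotypes, and had log2 fold changes of 5.65 ± 1.29, 5.46 ± 1.07 and 5.45 ± 1.14 in the order named (SE, edgeR adjusted p 0.0124, 0.00723 and 0.00920). Per kilobase of exon they reached 66.1, 47.5 and 73.7 CPM per kb in knockdown replicate 1. The fourth paralog, Acp53C14c, had 68 and 4 counts in the knockdown and 7 and 3 in the bam mutant and did not pass the filter. Acp95EF, which encodes a short gland peptide, measured 22.3 and 2.21 CPM in the knockdown and 0.538 and 0.483 CPM in the bam mutant (log2 fold change 4.58 ± 1.10, SE, edgeR adjusted p 0.0148).

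The 5 largest fitted increases were those of Acp32CD, Sfp84E, Sfp96F, Sfp65A and Mst57Db, and the first 4 had almost no counts in the bam mutant. Acp32CD had 318 and 32 counts in the knockdown and 0 and 2 in the bam mutant, a depth-scaled ratio of the pooled counts of 611 (95% exact interval 168 to 5066). Sfp65A had 85 and 8 counts in the knockdown and 2 and 1 in the bam mutant, a ratio of 108 (35.9 to 534). Their order of size therefore rested on 2 and 3 counts. Sfp84E, with 39 and 5 counts in the knockdown, and Sfp96F, with 35 and 8, had 0 counts in both bam mutant libraries. Against 3 counts in each bam mutant library, the means of the knockdown libraries were at least 25.0-fold and at least 24.5-fold higher. Replicate 1 supplied most of these means, and replicate 2 alone would give lower bounds. Sfp84E measured 1.30 and 0.172 CPM in the knockdown, and Sfp96F 1.16 and 0.276 CPM.

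**Figure D2:**
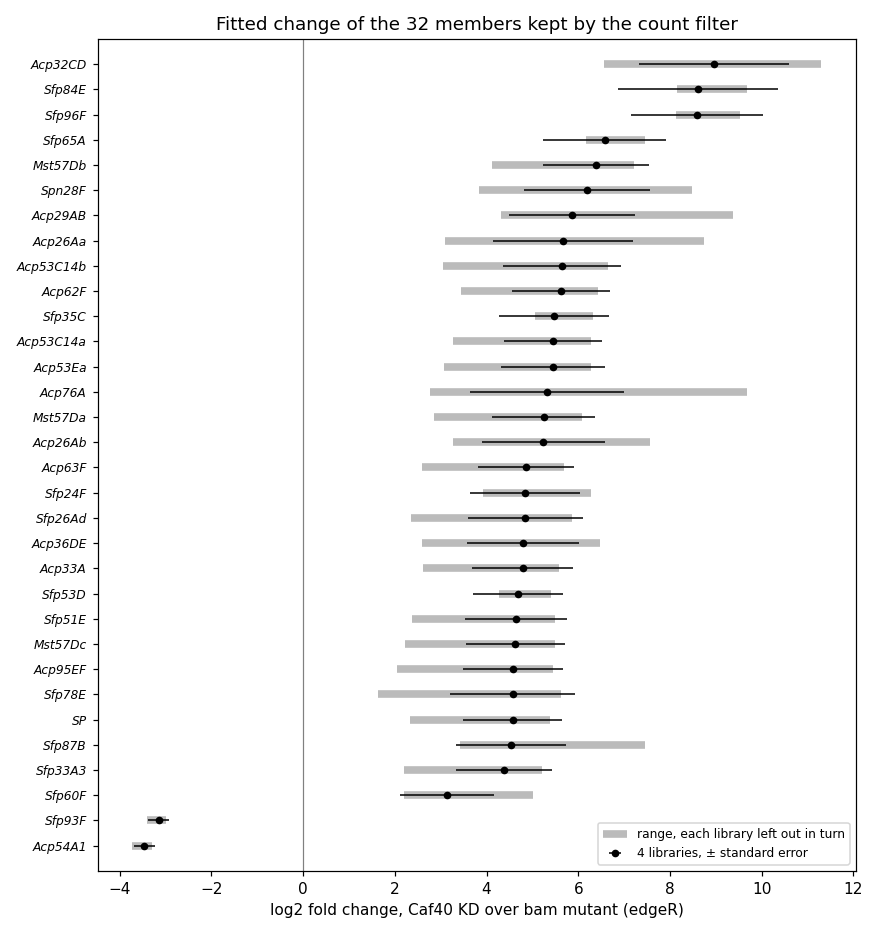
Log2 fold change, Caf40 knockdown over bam mutant, of the 32 members kept by the count filter, with the standard error of the edgeR fit to 4 libraries as thin lines. Grey bars give the range when each library was left out in turn. The 30 increases lie between 3.14 and 8.95 with wide bars, and the decreases of Acp54A1 and Sfp93F have narrow ones.

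Acp54A1 and Sfp93F moved the other way and were the most abundant members in the bam mutant, by CPM and per kilobase. Acp54A1 is a small accessory gland protein gene by name, and Sfp93F was named as a seminal fluid protein. Acp54A1 measured 1.79 and 2.52 CPM in the knockdown and 26.9 and 20.5 CPM in the bam mutant. Sfp93F measured 1.60 and 2.14 CPM in the knockdown and 14.3 and 18.7 CPM in the bam mutant. The knockdown means were 9.08% and 11.3% of the bam mutant means, with no overlap. The log2 fold changes were -3.46 ± 0.23 for Acp54A1 and -3.15 ± 0.23 for Sfp93F (SE, edgeR adjusted p 0.000149 and 0.000215), and both were called lower in every alternative fit run.

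This pair also lacked the excess of knockdown replicate 1 that most other members showed, a trait it shared with the thinly counted Sfp60F and Sfp87B described below. In the knockdown, replicate 1 stood at 0.714 times replicate 2 for Acp54A1 (95% exact interval 0.492 to 1.03) and at 0.747 times for Sfp93F (0.501 to 1.11). In the bam mutant the pair made up most of the members' counts, with 49.2% and 46.6% for Acp54A1 and 26.2% and 42.5% for Sfp93F. In the knockdown, Acp54A1 took 0.297% and 3.36%, and Sfp93F took 0.264% and 2.85%. The summed level of all 50 members was 605 and 74.8 CPM in the knockdown and 54.7 and 44.1 CPM in the bam mutant. Without the pair, a choice made after seeing these values, it was 601 and 70.2 CPM in the knockdown and 13.4 and 4.81 CPM in the bam mutant. The difference in mean log2 summed level was 2.12 with the pair and 4.68 without it, each with an exact two-sided permutation p of 0.33, the smallest that 2 against 2 libraries allow. Leaving out knockdown replicate 1 brought the difference over all members to 0.61, and that without the pair to 3.13.

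The 18 members that were not tested had at most 72 counts in any library. In 9 of them both knockdown libraries were above both bam mutant libraries, and in the other 9 the groups overlapped. Among all 15146 genes with at least 1 count, 34.3% had the knockdown above. Sfp77F had the highest count of these, with 72 and 3 in the knockdown and 2 and 2 in the bam mutant. Sfp33A2 had 9 and 3 counts in the knockdown, or 0.299 and 0.103 CPM, and 0 in both bam mutant libraries. The mean of its knockdown libraries was at least 6.86-fold higher against 3 counts in each bam mutant library. Sfp26Ac, with 37 and 1 counts in the knockdown and 18 and 14 in the bam mutant, was the best covered member with overlapping groups, and its knockdown libraries lay on either side of the bam mutant. Sfp24Ba had 0 counts in all 4 libraries.

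The knockdown libraries differed from each other by a factor that was similar for most of the well counted members. Of the 22 members with at least 10 counts in each knockdown library, 20 were at least 4 times higher in replicate 1, against 0.650% of all genes tested with as many counts. Without that count rule it was 28 of the 32 tested members, against 1.50% of all 10854 genes tested. The ratio had a median of 8.37 over the 22 members and was highest for Acp53C14b at 10.7 and lowest for Acp54A1. Summed over the 30 members called higher, it was 8.55, and the 95% exact interval of 26 of these 30 members held that value. Members with few counts had wide intervals, such as 5.60 to 43.5 for Sfp78E on 71 and 5 counts. Holding the value therefore does not show that ratios were equal. Acp53C14b, with 10.7 (8.74 to 13.1), lay above, and Acp29AB (4.56), Sfp60F (0.668) and Sfp87B (0.620) lay below. Sfp60F, with 9 and 13 counts (interval 0.252 to 1.69), and Sfp87B, with 9 and 14 (0.237 to 1.54), could not be told from equal levels. Summed over all 50 members, the lower knockdown library was 1.37 times the higher bam mutant library, and without Acp54A1 and Sfp93F, left out after seeing the data, it was 5.23 times.

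**Figure D3:**
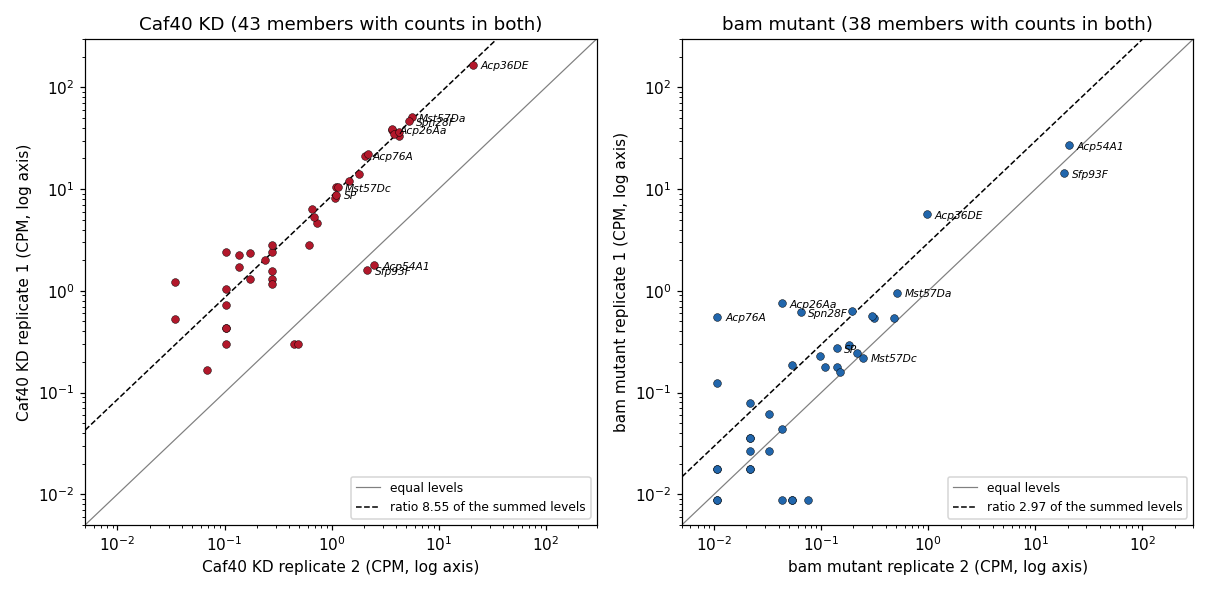
Level of each member in replicate 1 against replicate 2, in CPM on log axes, for the Caf40 knockdown (left) and the bam mutant (right), members with counts in both libraries only. The dashed line marks the ratio of summed levels over the 30 members called higher, 8.55 in the knockdown and 2.97 in the bam mutant, and the grey line marks equal levels. Knockdown members follow the dashed line, apart from Acp54A1, Sfp93F and a few low ones, and bam mutant members scatter around theirs.

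The composition of the seminal fluid transcripts was accordingly alike in the knockdown libraries. Acp36DE made up 27.8% (95% Wilson interval 27.2% to 28.5%) and 29.7% (27.8% to 31.8%) of the counts of the 48 members without Acp54A1 and Sfp93F. In the bam mutant it made up 42.1% (39.7% to 44.6%) in replicate 1 and 20.3% (16.8% to 24.3%) in replicate 2. Over the 30 members called higher, the levels of the knockdown libraries correlated across genes with a Pearson r of 0.92 on log2(CPM + 0.1) and a Spearman rho of 0.937. For the bam mutant libraries the values were 0.78 and 0.686. Across genotypes, r was 0.90 and rho 0.908 between knockdown replicate 1 and bam mutant replicate 1, and 0.92 and 0.862 between knockdown replicate 2 and bam mutant replicate 1. With bam mutant replicate 2 they were lower, at 0.70 and 0.662 for knockdown replicate 1 and at 0.77 and 0.716 for knockdown replicate 2. These correlations describe 30 genes that share libraries and were chosen by the test, and genes are not independent replicates.

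In the bam mutant the ratio of replicate 1 to replicate 2 differed among members and tended to be higher in longer transcripts, with exceptions. Replicate 1 was at least 4 times higher in 6 of the 32 tested members, against 0.590% of all genes tested. Of the 15 members with at least 10 counts in both bam mutant libraries, 1 was, namely Acp36DE, against 0.0764% of all genes with as many counts, and the median ratio of the 15 was 1.60. The split into length classes was chosen after seeing the values. The 10 members called higher with under 400 bp of exon had 290 and 167 counts, a depth-scaled ratio of 1.43 (95% exact interval 1.18 to 1.74). The 13 members from 400 to under 800 bp had 314 and 134 counts, a ratio of 1.93 (1.57 to 2.38). The 7 members of 800 bp and over had 872 and 108 counts, a ratio of 6.64 (5.43 to 8.19). Acp36DE (5.78), Spn28F (9.59), Acp26Aa (17.7) and Acp76A (51.8, on 63 and 1 counts) supplied most counts of this last class, whereas Mst57Dc stood at 0.894 and Acp95EF at 1.12. Acp36DE alone had 640 and 91 counts. In the same class, Acp32CD had 0 and 2 counts and Sfp53D 4 and 2. Among shorter members, Acp26Ab (504 bp) stood at 11.5 on 14 and 1 counts, and Acp29AB (767 bp) had 6 and 0.

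The same classes showed no such spread in the knockdown, with ratios of 8.37, 8.59 and 8.62 from short to long and overlapping intervals. Over members called higher with at least 20 counts in the pair of libraries, the Spearman rho of the ratio with exonic length was 0.667 in the bam mutant (17 members) and 0.247 in the knockdown (30 members). Over all genes tested with as many counts, rho was -0.225 in the bam mutant (10385 genes) and -0.0194 in the knockdown (9785 genes). The members' length trend in the bam mutant therefore ran against that of all genes. What sets this trend was not tested.

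**Figure D4:**
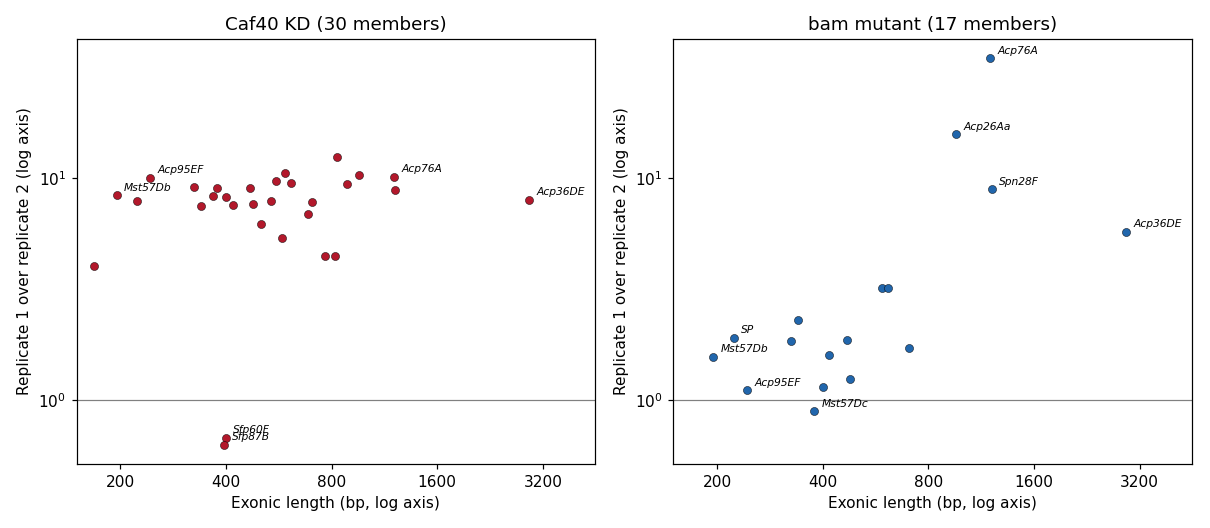
Ratio of replicate 1 to replicate 2 (counts plus 0.5, scaled to depth, log axis) against exonic length in bp (log axis) for members called higher with at least 20 counts in the pair, for the Caf40 knockdown (left) and the bam mutant (right). The grey line marks equal levels. Knockdown ratios lie near 8.55 at all lengths except for Sfp60F and Sfp87B, and in the bam mutant Acp36DE, Spn28F, Acp26Aa and Acp76A stand above the shorter members.

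Many members lie in clusters, which are given here in the coordinates of BDGP6.54, the dm6 assembly. By chromosome arm, 24 members were on 2L, 8 on 2R, 9 on 3L and 9 on 3R. The cluster of Mst57Dc, Sfp96F, Mst57Db and Mst57Da (3R, 25829321 to 25831899) had 2978 and 328 counts in the knockdown and 167 and 88 in the bam mutant, with all 4 genes called higher. The cluster of Sfp53D and the 4 Acp53 paralogs (2R, 16744295 to 16751495) had 3325 and 352 counts in the knockdown and 208 and 80 in the bam mutant. Its 4 tested genes were called higher, and Acp53C14c was not tested. Among all genes tested, 30.7% were called higher. Sfp96F and Sfp53D passed the filter through the knockdown only. The Sfp26Ac, Acp26Ab and Acp26Aa cluster (2L, 5884350 to 5893896) had 1330 and 129 counts in the knockdown and 118 and 19 in the bam mutant. By contrast, the 4 Sfp24B genes (2L, 3667977 to 3670581), which lie within Drgx on the other strand, had 7 and 3 counts together in the knockdown and 0 and 1 in the bam mutant.

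Levels thus differed between clusters, since the Mst57D and Acp53 groups were among the most abundant members and the Sfp24B group was at the limit of detection. They could also differ within a cluster, as in the pair of SP and Sfp70A4 on 3L. SP had 266 and 32 counts in the knockdown, while Sfp70A4 had 22 and 3 there and 1 and 5 in the bam mutant. Paralogs within a cluster can share reads, and the part of their reads lost to multiple mapping was not measured per gene.

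The counts followed the strand of the transcript, which mattered for a few members that overlap other genes. Acp95EF overlaps Spase22-23, a signal peptidase subunit gene on the other strand, which put 92 and 81 opposite-strand counts at the locus in the knockdown and 429 and 357 in the bam mutant. Its own strand had 672 and 64 counts in the knockdown and 61 and 45 in the bam mutant. Sfp78E overlaps CG11248 and a noncoding RNA and had 71 and 5 counts of its own in the knockdown and 9 and 2 in the bam mutant, below the opposite-strand counts in 3 of the 4 libraries. Counted without strand, Sfp78E lost its call, with a log2 fold change of 1.93 (edgeR adjusted p 0.108, and 6.84e-06 to 0.222 over all alternatives). Sfp87B overlaps svp on the same strand, so the assignment of its few counts is uncertain.

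Genes that work with SP or regulate the gland were examined next to the members. The male side of the sex peptide network consists of gland proteins that bind SP to sperm in the female, among them serine protease homologs, lectins and cysteine-rich secretory proteins. Its 8 genes summed to 44.2 and 5.79 CPM in the knockdown and to 0.459 and 0.301 CPM in the bam mutant. The 6 that passed the filter did so through the knockdown alone and were thus bound to differ. All 6 were called higher, against 30.7% of all genes tested, their median being 6.05 on the log2 scale. The cysteine-rich secretory protein gene CG17575, for example, had 323 and 39 counts in the knockdown and 0 and 4 in the bam mutant, and antr had 86 and 23 in the knockdown and 11 and 5 in the bam mutant.

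Transcription factors of the gland were mixed. The paired-domain factor prd, which is needed for the gland to form, measured 1.23 and 0.241 CPM in the knockdown and 0.265 and 0.290 CPM in the bam mutant, so the groups overlapped, with replicate 1 of the knockdown 5.10 times replicate 2 on 37 and 7 counts (log2 fold change 1.40, edgeR adjusted p 0.171). Abd-B, which secondary cells need, and dsx, the sex determination factor, were called lower (-1.12 and -1.59, edgeR adjusted p 0.000513 and 7.53e-05). The nuclear receptor gene Hr39 was called higher (0.23, edgeR adjusted p 0.0111), and the homeobox gene dve was not called (0.90, edgeR adjusted p 0.179). Knockdown replicate 1 over replicate 2 was 1.17 for Abd-B, 1.11 for dsx, 0.960 for Hr39 and 0.877 for dve, unlike most members. Which cells these transcripts came from was not tested.

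Genes of the neighbouring ejaculatory duct fell in the knockdown. The list held Dup99B, which encodes a duct peptide related to SP, the esterase gene Est-6, the glucose dehydrogenase gene Gld and the antibacterial peptide gene Anp. All 4 were called lower (median log2 fold change -3.42), against 33.0% of all genes tested. They summed to 37.0 and 49.5 CPM in the knockdown and to 525 and 507 CPM in the bam mutant. As in Acp54A1 and Sfp93F, knockdown replicate 1 was below replicate 2 in each of them, by ratios from 0.373 for Dup99B to 0.908 for Est-6. This was not particular to the duct, since EbpIII (0.896) and muscle genes such as Mhc (0.780) were also below 1. Of the ejaculatory bulb list, EbpIII was lower (136 and 152 CPM in the knockdown, 324 and 306 CPM in the bam mutant) and EbpII was called higher on at most 14 counts in a library.

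Markers of other tissues moved in both directions between these libraries. Their counts stand beside 30.7% called higher and 33.0% called lower among all genes tested. The 7 early germ line genes found, among them aub, zpg and spn-E, were all called higher (median 0.70 on the log2 scale), and summed to 2522 and 2251 CPM in the knockdown and 1482 and 1433 CPM in the bam mutant. Of 7 cyst and hub genes, 5 were called lower (median -1.35), and of 8 muscle genes, 6 were called lower (median -0.78). Of 5 fat body genes, 2 were called higher and 1 lower (median 0.05), and they summed to 125 and 120 CPM in the knockdown and 103 and 120 CPM in the bam mutant. Spermatid genes summed to 5.02 and 150 CPM in the knockdown and to 10.2 and 12.2 CPM in the bam mutant, so here it was knockdown replicate 2 that stood apart, opposite to the members, and 1 of 12 was called higher (median 3.00). The part of any other tissue in the members' levels was not tested.

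**Figure D5:**
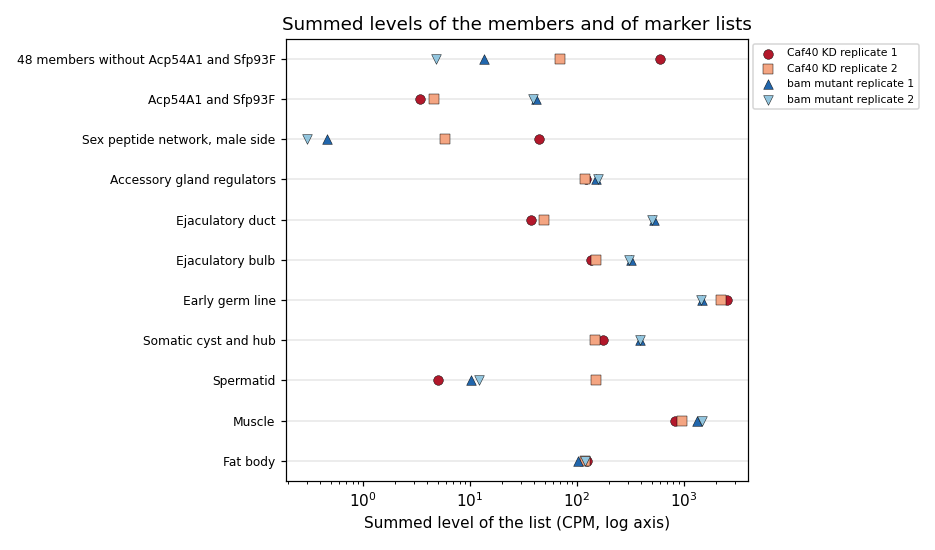
Summed level in each library, in CPM on a log axis, of the 48 members without Acp54A1 and Sfp93F, of those 2 genes, and of the lists of marker genes. The 48 members and the sex peptide network have both knockdown libraries above the bam mutant with replicate 1 highest, and the knockdown lies below the bam mutant in Acp54A1 with Sfp93F and in the ejaculatory duct, ejaculatory bulb, cyst and hub, and muscle lists.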

How the data were processed

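Poly(A) libraries were directional. Per the labels and the submitters' processing notes, the authors trimmed reads (Trim Galore), aligned them to dm6 (STAR) and deposited raw read counts per gene; versions are not given in the sources used here. The counts of the strand read by a directional kit were used, and summary entries naming no gene (26.9% to 30.8% of each library) were left out. The authors' DESeq2 table (fold changes, p-values) and 4 normalised per-sample columns were not used.

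Members and lists were chosen with earlier results of these data known. Symbols were matched for 17253 of 17559 IDs, and lengths and positions came from Ensembl 115. Counts were fitted in R 4.3.3 with edgeR 4.0.16 (filterByExpr, TMM, quasi-likelihood test, group as the only term, two-sided, Benjamini-Hochberg adjustment over all 10854 genes, calls under 0.05). The same fit was also run on simulated data, whose settings were not matched to these members. Alternatives were DESeq2 1.42.0, other scalings and filters, unstranded counts, thinning, a replicate block and leaving out each library.

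Members named with values were those with a known role, the 5 highest by CPM in each library, the 5 largest increases, every member called lower, and the extremes of the knockdown replicate ratio. Others were named after their values were seen.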

Additional observations from a re-analysis of the deposited data

How the results depend on the processing

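None of the 32 tested members reversed its direction in an alternative fit that tested it (directions of the other 18 were not compared). The groups of these 32 did not overlap in CPM, so leaving out a library could hardly have reversed a direction. Acp54A1 and Sfp93F had log2 fold changes of -3.73 to -3.28 and -3.41 to -2.99 over the alternatives. With the share of all genes called higher in parentheses, the count of members called higher was 36 of 43 with DESeq2 (26.6%), 36 of 49 with no filter beyond 1 count (17.2%), 30 of 32 with upper quartile scaling (39.4%) or library size alone (36.6%), 29 of 32 with unstranded counts (30.0%), 20 of 22 (35.2%) after reads of the deeper bam mutant libraries were thinned to a depth like that of the knockdown, and 12 of 14 (37.4%) with at least 10 counts required in every library, which tests fewer members. Upper quartile scaling shifted the median of all genes by 0.15 and no filter by -0.10 on the log2 scale. Leaving out 1 library at a time gave 1 to 39 members called higher, medians of 2.76 to 5.67, 5004 to 8275 genes called in all, and differences in mean log2 summed level of 0.61 to 3.62. The lone library of a genotype is then assumed to vary like the other genotype's, and the cause of the lost calls was not tested.

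Without the highest member in each library, the bam mutant sums were 27.7 and 23.5 CPM. Without Acp54A1 and Sfp93F, chosen after seeing the data, they were 13.4 and 4.81 CPM, and the log2 difference was 4.68. Sfp60F lost its call with DESeq2 (adjusted p 0.0700) and with no filter (edgeR adjusted p 0.0646; 0.00461 to 0.425 over all alternatives). Sfp78E lost its call without strand and without knockdown replicate 1 (1.64, edgeR adjusted p 0.20).

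Replicate numbers matched between genotypes in the labels, but nothing ties equal numbers together, and with 2 pairs the replicate differences correlated across genes with a Pearson r of 0.264. With the replicate block, 30 of 32 members were again called higher, 2 lower, the median was 4.78, and 6792 genes were called in all. Most members had under 10 counts in at least 1 bam mutant library, which limits the precision of their fold changes.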

Other observations

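Genes outside the members were searched for the members' pattern, here a level in knockdown replicate 1 at least 4 times that in each other library. Of 9956 protein-coding non-members tested, 68 met it, and of the 32 tested members, 28 did. The rule was written after the members' levels were seen, so the share of members that met it is no test. The 10 of these non-members with the highest CPM in knockdown replicate 1 were CG17097, CG31872, Spn38F, CG43147, msopa, BG642163, BG642312, CG18284, CG30395 and CG9029. CG17097 had 4058 and 300 counts in the knockdown and 531 and 18 in the bam mutant. CG31872 had 2794 and 231 counts in the knockdown and 230 and 6 in the bam mutant. Spn38F, a serpin gene, had 1789 and 219 counts in the knockdown and 125 and 31 in the bam mutant. CG17097 and CG31872 also differed widely between the bam mutant libraries, with replicate 1 far above replicate 2. These genes were selected by the very values given, so no test is attached to them.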
